A study of Mus musculus with 6 samples.

Results

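Mitochondrial ribosomal protein genes were the 78 genes measured here whose symbol is Mrpl or Mrps followed by a number, with or without a letter, out of 22815 genes that a probe could be assigned to. A probe was assigned through its transcript accession in a RefSeq table, and 101 probes belonged to the 78 genes. Hearts of 6 male C57BL6 mice aged 10 weeks were profiled on 1-colour Agilent mouse arrays, with 1 array per mouse. All 6 mice were starved for 16 h and then received 20 mg/kg of lipopolysaccharide (LPS), the bacterial endotoxin that models sepsis, into the peritoneum. At 3 and 24 h, 3 mice received saline and 3 received recombinant human thrombomodulin (rhTM), the soluble part of a thrombin receptor on endothelium, and RNA was taken from the heart at 30 h. No heart without LPS was profiled, so every value compares rhTM with saline after LPS and starvation. The comparison describes how the heart's transcripts differed between rhTM and saline in endotoxemia.

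The mitochondrial ribosome translates the few messenger RNAs of mitochondrial DNA, which encode core subunits of the respiratory chain and of ATP synthase. All of its proteins are made from nuclear genes and imported, so heart muscle, with its dense mitochondria, depends on a nuclear programme for a ribosome that never leaves the organelle. Some of its proteins descend from those of the bacterial ribosome and others were added during the evolution of mitochondria. Mrps36 carries the name of the family but is known as an adaptor of the oxoglutarate dehydrogenase complex of the citric acid cycle. It is described apart and placed in neither subunit, but it is counted among the 78 members.

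Promoter letters come from RefSeq windows of assembly GRCm38.p6 that run from 250 bases before to 50 bases after a gene's start, which were found for 69 of the 78 genes. Not in the table were Mrpl4, Mrpl13, Mrpl15, Mrpl19, Mrpl38, Mrpl54, Mrps28, Mrps34 and Mrps35. The 150 bases before the start are printed for Mrpl18 and Mrps36, the genes that passed the test below, and for 4 genes with a match close to the start. Capitals mark CCGGAAGT, which the factor GABPA recognises, or the letters of the factor NRF1, which are GCGCATGCGC or the same with another base at the sixth place. Both factors are known activators of nuclear genes for mitochondrial proteins. The 4 genes printed with a match are examples, and all 4 had a higher mean with rhTM. Other members also had a match close to the start, such as Mrpl43 with the GABPA letters at position -12. Mrpl17, whose mean was lower with rhTM, had the NRF1 letters at position -49. Mrpl18 lies at chr17:12916092-12916241 (minus strand), Mrps36 at chr13:100744660-100744809 (minus), Mrpl9 at chr3:94443186-94443335 (plus), Mrpl44 at chr1:79775868-79776017 (plus), Mrpl3 at chr9:105053118-105053267 (plus) and Mrps22 at chr9:98601680-98601829 (minus).
Mrpl18: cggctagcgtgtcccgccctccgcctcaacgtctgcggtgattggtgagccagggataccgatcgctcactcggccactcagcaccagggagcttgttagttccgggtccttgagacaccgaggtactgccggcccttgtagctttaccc
Mrps36: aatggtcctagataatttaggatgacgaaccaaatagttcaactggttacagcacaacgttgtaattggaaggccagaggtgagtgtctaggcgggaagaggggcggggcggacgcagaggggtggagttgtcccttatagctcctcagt
Mrpl9: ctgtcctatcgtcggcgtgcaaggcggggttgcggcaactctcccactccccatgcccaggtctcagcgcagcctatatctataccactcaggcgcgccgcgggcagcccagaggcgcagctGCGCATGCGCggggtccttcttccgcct
Mrpl44: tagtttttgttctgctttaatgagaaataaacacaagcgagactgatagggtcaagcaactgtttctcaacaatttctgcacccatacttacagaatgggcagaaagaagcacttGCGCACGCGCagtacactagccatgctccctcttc
Mrpl3: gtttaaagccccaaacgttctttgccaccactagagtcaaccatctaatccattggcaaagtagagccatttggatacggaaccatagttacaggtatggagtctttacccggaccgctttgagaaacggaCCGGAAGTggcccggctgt
Mrps22: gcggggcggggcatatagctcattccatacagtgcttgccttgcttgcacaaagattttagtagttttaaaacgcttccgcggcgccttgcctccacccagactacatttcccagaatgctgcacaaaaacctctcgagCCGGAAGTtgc

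The 69 members had 75 windows, and a gene was counted if any of its windows held a match. The NRF1 letters were found for 13 of the 69 members (18.8%) and for 5.19% of all 27025 genes in the table. Those of GABPA were found for 12 (17.4%, against 4.31%), and AANATGGCG, which YY1 recognises, for 11 (15.9%, against 2.76%). In 9 of the latter the YY1 letters began 8 to 36 bases after the start. The letters of the nuclear receptor ERRA, TCAAGGTCA, were found for 0 members (0.466% of all genes), and the E-box CACGTG for 5 (7.25%, against 8.09%). Both strands were searched, no string contains another, and a match is a description of letters, not of binding. At least 1 of the NRF1, GABPA and YY1 strings was found for 33 members (47.8%, against 11.2%). The median change with rhTM was 0.32 in those 33 genes and 0.32 in the 36 with none, on the log2 scale used throughout. Mrpl18 had the GABPA letters at position -240 from its start, outside the stretch printed, and Mrps36 had none of the 3 strings.

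Signals are given as log2 of the processed signal minus the 75th percentile of the same array, and a change is the rhTM mean minus the saline mean with the standard error (SE) of the fit (n = 3 and 3). All 101 probes were well above background on all 6 arrays. Each gene was read from its brightest probe, and all 78 were among the 14701 genes tested. Between 54.8% and 62.8% of spots were well above background, and 0 were saturated. Saline 1 and 2 were hybridised on slide 1, and saline 3 shared slide 2 with all rhTM arrays. The slides differed in brightness and in their spike-in controls, and their part in the results was not tested. The 75th percentile of the signal was 671 and 732 on slide 1 and 394 to 466 on slide 2, and the spike-in fit had an r2 of 0.987 and 0.990 on slide 1 and 0.845 to 0.881 on slide 2. Saline 3 stood apart from the other saline arrays: the median gap of a member between saline 1 and 2 was 0.10, but 0.41 between saline 3 and their mean. Saline 3 was over 0.5 above that mean in 21 members and over 0.5 below it in 11. It lay above it in 41 of 78 members (49.4% of all tested genes) and was nearer to rhTM 1 and 2 than to saline 1 and 2 in 30 (52.0%). Likewise rhTM 3 differed from the mean of rhTM 1 and 2 by a median of 0.28, against 0.09 between those arrays. Values without each of these arrays are given where they bear on a result.

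In hearts treated with rhTM, most transcripts for mitochondrial ribosomal proteins had a higher mean signal than with saline, by a small amount each. The rhTM mean was above the saline mean in 67 of the 78 genes (85.9%), against 50.8% of all genes tested. The members were brighter than most genes, with a median signal of 4.04 against 0.31 for all genes tested. Only 1 member lay below the median level of the genes tested. The shares of all genes given here and below are therefore not shares of genes of like signal. The part of signal level in these differences was not tested. The median change was 0.32, or 1.25-fold, and the median over all genes was 0.01. Only 2 of the 78, Mrpl18 and Mrps36, passed the test (limma, Benjamini-Hochberg over all genes, adjusted p under 0.05), both higher. That is 2.56% of the members, close to the 2.75% of all genes called higher, and 0 were called lower (2.41% of all genes, and 5.17% in either direction). Leaving Mrps36 aside, 1 of 51 large-subunit members and 0 of 26 small-subunit members were called. Without the adjustment, 21 members (26.9%) had p under 0.05, 20 of them higher, against 30.7% of all genes (15.1% higher and 15.6% lower). The 76 other members had adjusted p from 0.0505 to 0.959, and their changes ranged from -0.51 to 1.01.

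**Figure D1:**
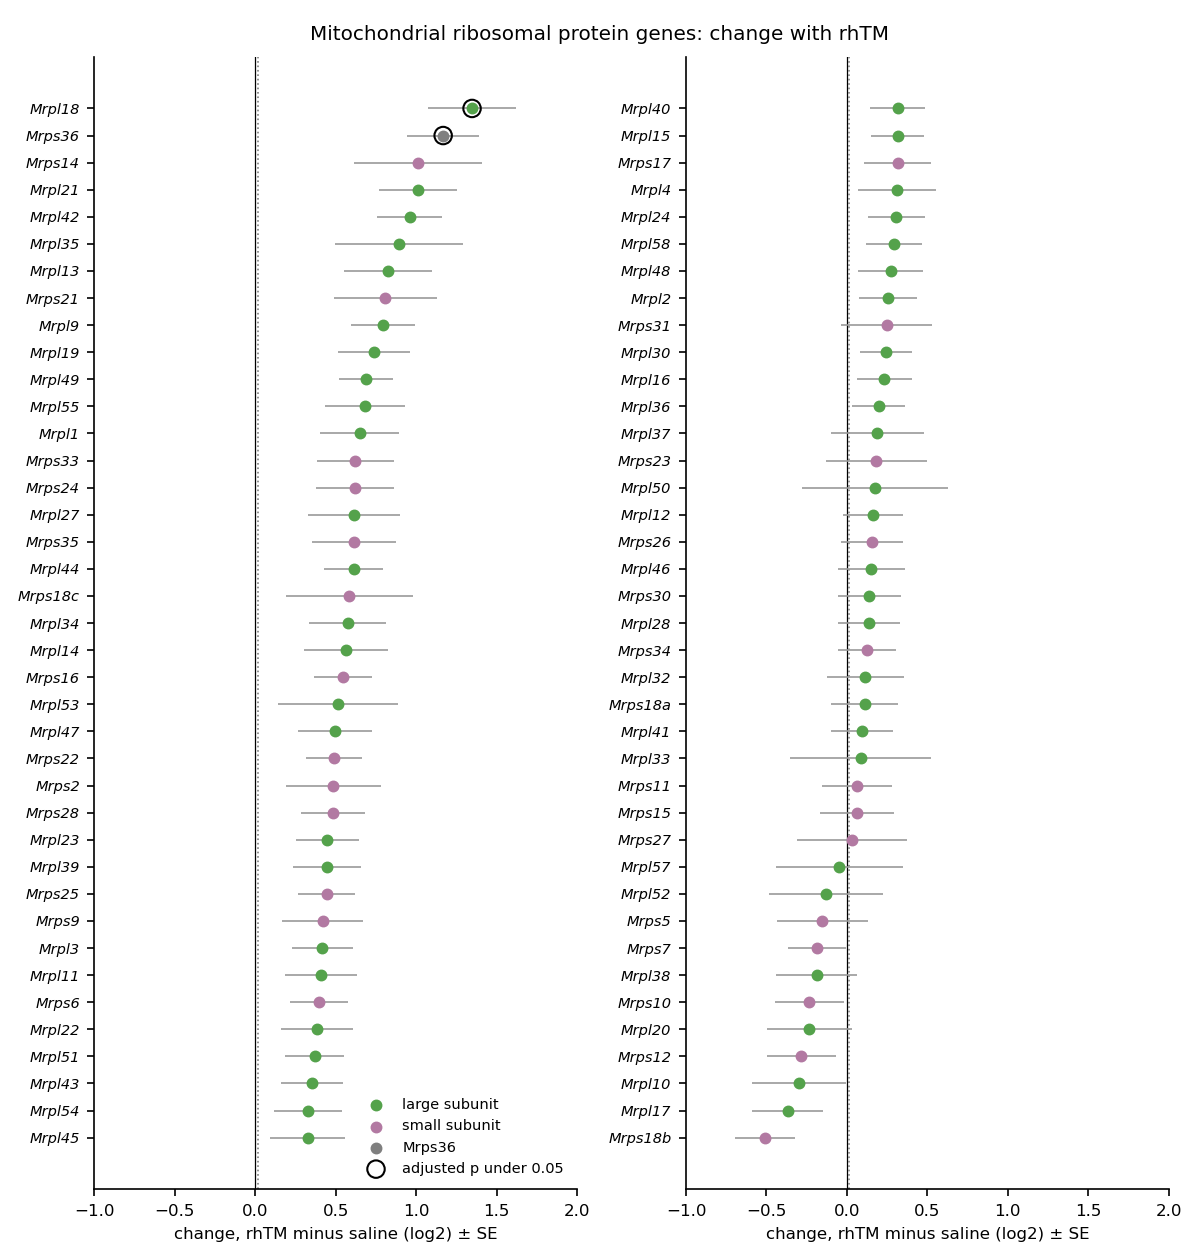
Change of each of the 78 genes (x axis, log2, rhTM mean minus saline mean; points, bars ± SE of the limma fit, n = 3 and 3), ordered from the highest to the lowest. A dotted line marks the median of all genes, 0.01. Points for 67 genes lie right of 0, and open circles mark Mrpl18 and Mrps36, the 2 with adjusted p under 0.05.

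The separation of the groups array by array showed the same tilt. In 34 members (43.6%) every rhTM array was above every saline array, against 17.0% of all genes. In 1 member (1.28%), Mrps18b, every rhTM array was below every saline array, against 18.7% of all genes. The groups overlapped in the other 43. Among them were 15 in which all rhTM arrays were above saline 1 and 2 and saline 3 alone reached into the rhTM range, and 11 in which rhTM 1 and 2 were above all saline arrays and rhTM 3 alone was not. The mean over the 78 genes was 3.58, 3.55 and 3.68 in the saline arrays and 4.03, 3.95 and 3.87 in the rhTM arrays. The 6 array means therefore did not overlap between groups, with saline 3 and rhTM 3 closest to each other. Means over all genes tested did not overlap either, but lay closer together. They were 0.318, 0.342 and 0.382 in the saline arrays and 0.386, 0.394 and 0.447 in the rhTM arrays.

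Mrpl18 (Entrez gene 67681, chromosome 17) is the counterpart of the bacterial protein that binds 5S ribosomal RNA in the large subunit, and it had the largest increase. Saline 1, 2 and 3 gave signals of 3.46, 3.44 and 4.19, and rhTM 1, 2 and 3 gave 5.19, 5.18 and 4.77. All rhTM arrays were above all saline arrays, and saline 3 was the highest of the saline arrays while rhTM 3 was the lowest of its group. Mrpl18 rose by 1.35 ± 0.27, or 2.54-fold (limma, Benjamini-Hochberg adjusted p = 0.0457). Against saline 3 alone, on the same slide, the difference was 0.85 (limma with slide as a block, adjusted p = 0.0853), and blocking on the replicate number gave an adjusted p of 0.0711. Over all alternatives run it ranged from 0.000166 to 0.216.

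Other large-subunit proteins of bacterial descent leaned the same way. Of 30 such members, 27 had a higher mean with rhTM, 17 with the groups apart, and their median change was 0.40. Mrpl21 had signals of 2.09, 1.91 and 2.65 with saline and 3.33, 3.22 and 3.12 with rhTM, and its groups were apart. Its change of 1.01 ± 0.24 did not pass (limma, Benjamini-Hochberg adjusted p = 0.0615). Mrpl35 differed by 0.89 ± 0.40 (limma, adjusted p = 0.184), with -1.59, -1.42 and -2.14 under saline and -0.23, -0.61 and -1.63 under rhTM. There rhTM 3 lay within the saline range and the groups overlapped. Mrpl13, Mrpl9, Mrpl19 and Mrpl1 had groups apart and changes of 0.82, 0.79, 0.74 and 0.65, with adjusted p from 0.0680 to 0.138 in limma's fit. Against saline 3 the differences of Mrpl13 and Mrpl1 were 0.27 and 0.19, and those of Mrpl9 and Mrpl19 were 0.94 and 0.70. Mrpl13, Mrpl9 and Mrpl1 were picked out after their values were seen, as were Mrpl49 and Mrps35 below.

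**Figure D2:**
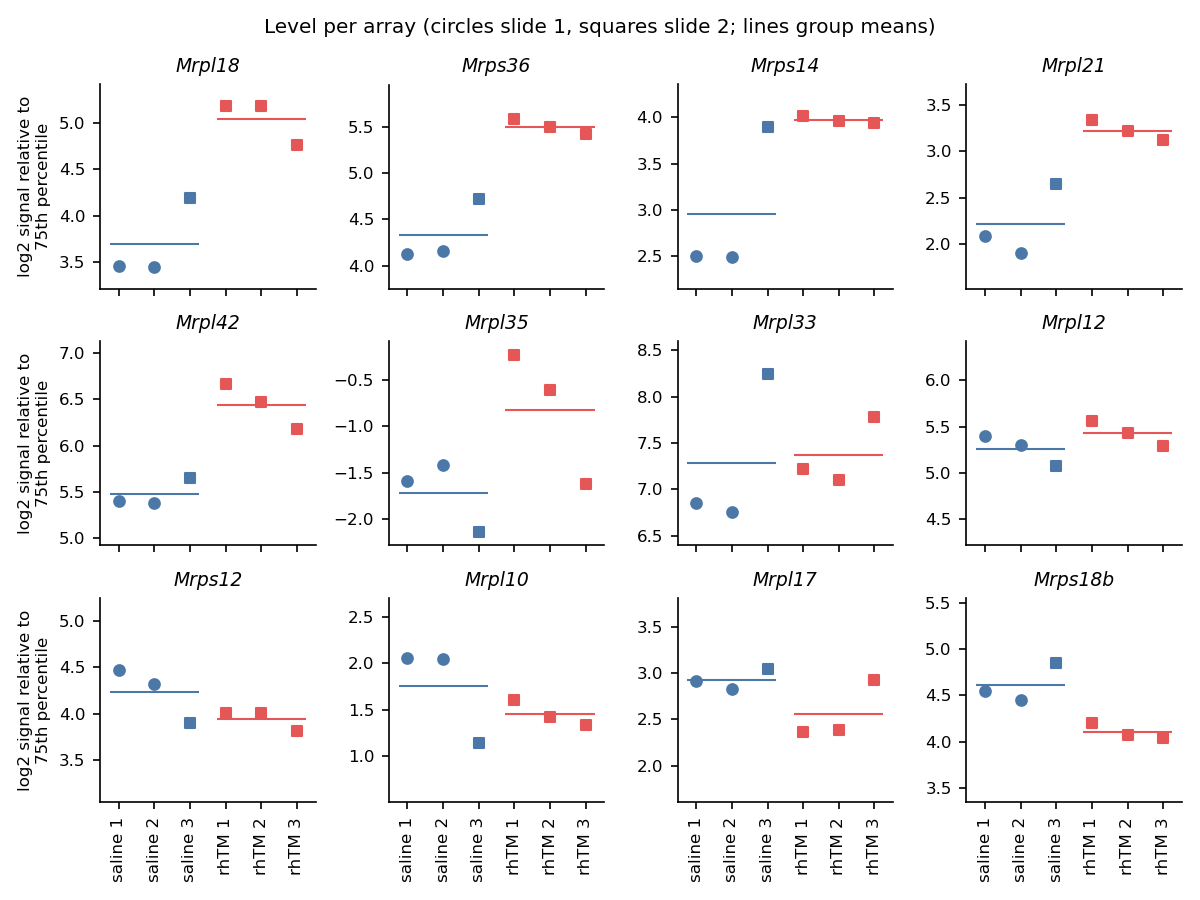
Signal of 12 members in each array (y axis, log2 relative to the array's 75th percentile; each panel has its own offset and the horizontal lines are group means). Circles are arrays of slide 1 and squares those of slide 2. Mrpl18, Mrps36, Mrpl21 and Mrpl42 have all rhTM arrays above all saline arrays, Mrps18b has them below, and in Mrps14 and Mrpl33 saline 3 lies far above saline 1 and 2.

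Members of the ribosome's stalk, which recruits the translation factors, had changes of both signs in the group means. No test was made of the differences between them. Mrpl12, the stalk protein that also binds the mitochondrial RNA polymerase, had 5.40, 5.31 and 5.08 with saline and 5.56, 5.43 and 5.29 with rhTM, a change of 0.16 ± 0.19 with overlapping groups. Mrpl10, which anchors it, had 2.06, 2.05 and 1.14 with saline and 1.61, 1.42 and 1.34 with rhTM. Its mean was lower with rhTM (-0.30 ± 0.29), yet the rhTM mean was above saline 3 by 0.31, so its sign turned with the saline array chosen. For Mrpl11, at the stalk's base, saline gave 4.69, 4.60 and 5.22 and rhTM 5.30, 5.11 and 5.34 (0.41 ± 0.23), and saline 3 was inside the rhTM range. None of the 3 passed (limma, adjusted p 0.258 to 0.564). Against saline 3 the differences of Mrpl12 and Mrpl11 were 0.35 and 0.03, of the same sign as that of Mrpl10.

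Mrpl3, near the peptidyl transferase centre, and Mrpl44, a protein with a ribonuclease III fold, are both known for human mutations that cause cardiomyopathy. Mrpl3 had 3.33, 3.36 and 3.33 in the saline arrays and 3.89, 3.89 and 3.49 in the rhTM arrays. Mrpl44 had 2.46, 2.31 and 2.29 and then 3.07, 3.05 and 2.77. In both genes the groups were apart and saline 3 was close to the other saline arrays, and the changes were 0.42 ± 0.19 and 0.61 ± 0.18 (limma, adjusted p = 0.192 and 0.0919). The promoter of Mrpl3 printed above has the GABPA letters and that of Mrpl44 the NRF1 letters.

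Among the 21 large-subunit members classed here as without a bacterial counterpart, 18 had a higher mean with rhTM, 7 with the groups apart. Their median change was 0.29. Mrps18a was placed in this class, although the related Mrps18c was placed with the members of bacterial descent. Mrpl42 was closest to passing, with 5.40, 5.38 and 5.65 under saline and 6.66, 6.47 and 6.18 under rhTM. The lowest rhTM array was above the highest saline array, and the change was 0.96 ± 0.20 (limma, adjusted p = 0.0505). Mrpl49 followed with 0.69 ± 0.17 and groups apart (adjusted p = 0.0663 in the same fit). Mrpl45, which holds the ribosome at the inner membrane, changed by 0.32 ± 0.23 with overlap, since rhTM 3 (3.23) lay below saline 2 and 3 (3.39 and 3.40). Mrpl58, a peptidyl-tRNA hydrolase built into the large subunit, had a change of 0.29 ± 0.17 with the groups apart. Mrps18a and Mrps30 are large-subunit proteins despite their names, and they differed by 0.11 ± 0.21 and 0.14 ± 0.20 with overlap. Mrpl51 had 0.37 ± 0.18 with the groups apart (limma, adjusted p = 0.222).

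Some large-subunit members were much higher in saline 3 than in the other saline arrays. Mrpl33 had 6.85, 6.75 and 8.24 with saline and 7.22, 7.10 and 7.78 with rhTM. Mrpl50 had 0.12, -0.05 and 1.64 with saline and 0.68, 0.62 and 0.94 with rhTM. In both, saline 3 was the highest of the 6 arrays and rhTM 3 the highest of its group, the changes over the groups were 0.09 ± 0.44 and 0.18 ± 0.45, and the differences from saline 3 were -0.87 and -0.89. Mrpl14 (0.56 ± 0.26) also had saline 3 (6.14) above rhTM 2 (6.01). In all, 8 members had saline 3 more than 1 above the mean of saline 1 and 2, namely Mrpl33, Mrpl50, Mrpl52, Mrpl53, Mrpl57, Mrps14, Mrps18c and Mrps21, which were picked out after their values were seen.

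Small-subunit members showed a like picture. Of 26, 21 had a higher mean with rhTM, 9 with the groups apart, and the median change was 0.36. In the large subunit it was 45 of 51, 24 apart, with a median of 0.32. The 16 small-subunit members classed as of bacterial descent had a median of 0.41 and the 10 others 0.22, with 12 and 9 higher. Mrps18c was placed with the 16 and the related Mrps18b with the 10. No test was made of these differences between classes.

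Mrps14 had the largest change in the small subunit, with 2.50, 2.49 and 3.90 under saline and 4.02, 3.96 and 3.94 under rhTM. The groups did not overlap, but saline 3 was 0.04 below the lowest rhTM array, and the change of 1.01 ± 0.40 did not pass (limma, adjusted p = 0.147). Mrps21 (0.81 ± 0.32) and Mrps18c (0.58 ± 0.39) had the same shape, with saline 3 at 6.23 and 4.97, inside or above the rhTM range. Mrps16, mutated in a human respiratory chain deficiency, differed by less but evenly. Its signals were 5.22, 5.22 and 5.51 with saline and 5.89, 5.75 and 5.93 with rhTM (0.54 ± 0.18, adjusted p = 0.113 in limma's fit), with no overlap.

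Mrps22, a small-subunit protein without a bacterial counterpart, had 1.77, 1.81 and 1.92 with saline and 2.46, 2.32 and 2.18 with rhTM. Its groups were apart, its change was 0.49 ± 0.18 (limma, adjusted p = 0.127), and its promoter has the GABPA letters. Mrps35 had 2.83, 2.76 and 2.02 with saline and 3.19, 3.21 and 3.04 with rhTM, so saline 3 was the lowest array. It differed by 0.61 ± 0.26 over the groups and by 1.13 against saline 3, and it was the only member called in the slide-blocked fit (limma, adjusted p = 0.0325). Mrps27, a pentatricopeptide repeat protein, and Mrps11 changed by 0.03 ± 0.34 and 0.06 ± 0.22.

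Few members had a lower mean with rhTM, and they were spread over both subunits. Mrps18b had 4.55, 4.45 and 4.85 with saline and 4.20, 4.08 and 4.05 with rhTM. All rhTM arrays were below all saline arrays and saline 3 was the highest, and the change was -0.51 ± 0.19 (limma, adjusted p = 0.133). Its second probe gave -0.72. The related Mrps18a and Mrps18c had positive changes, given above. Mrpl17 (-0.37 ± 0.22), Mrps12 (-0.28 ± 0.21), Mrpl20 (-0.24 ± 0.26) and Mrps10 (-0.23 ± 0.21) overlapped between groups. Mrps12 is the counterpart of the bacterial protein at the decoding centre, and it had 4.47, 4.32 and 3.90 with saline and 4.01, 4.01 and 3.82 with rhTM. Its saline 3 value lay inside the rhTM range, and the difference from saline 3 was 0.05. None passed the test (limma, adjusted p 0.288 to 0.561).

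Mrps36 (Entrez gene 66128, chromosome 13), the adaptor of the oxoglutarate dehydrogenase complex, was the other member that passed. Its signals were 4.13, 4.16 and 4.72 with saline and 5.58, 5.50 and 5.42 with rhTM. The groups were well apart, with saline 3 nearest to the rhTM arrays. Mrps36 rose by 1.17 ± 0.22, or 2.25-fold (limma, Benjamini-Hochberg adjusted p = 0.0430). Against saline 3 the difference was 0.78 (limma with slide as a block, adjusted p = 0.0586), and blocking on the replicate number gave 0.0588, within a range of 0.000212 to 0.210 over all alternatives run. Both called members thus missed the threshold in either blocked fit.

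Genes with several probes allowed a check within the arrays. Of the 21 such members, only Mrps5 had probes of opposite sign in the group means, at -0.15 and 0.18. Against saline 3 its probes gave 0.32 and 0.53. By that measure the signs differed in Mrps7 (-0.31 and 0.16), Mrpl22 (-0.01 and 0.08) and Mrps17 (-0.01 and 0.02). In the group means the widest gap was in Mrps33, whose 3 probes gave 0.49 to 1.84, and the next was in Mrpl27, at 0.08 to 0.61. The called members, Mrpl18 and Mrps36, have 1 probe each.

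With the slide as a block, a member's change equals the rhTM mean minus saline 3, so it rests on 1 saline array. By that measure 63 of the 78 were higher (49.8% of all genes), the median was 0.32, and the values ran from -0.89 to 1.31. Called were 1 higher, Mrps35, and 0 lower, against 3.83% and 1.95% of all genes. Blocking on the replicate number called 0 members in either direction (2.43% of all genes called higher and 1.65% lower), with 23 members (29.5%) at an unadjusted p under 0.05, against 36% of all genes. Without saline 3, limma called 25 members higher (32.1%) and 1 lower (1.28%), and of all genes 19.8% and 18.8%. In that fit all saline arrays were on slide 1 and all rhTM arrays on slide 2, so rhTM and slide cannot be told apart. Leaving out rhTM 3 left 1 call, Mrpl42, and leaving out any of the other 4 arrays left 0 calls (limma), with 6 to 12 members (7.69% to 15.4%) at an unadjusted p under 0.05, against 16.8% to 21.5% of all genes. The size of several changes depended on the saline array. Against saline 3 the difference was smaller in Mrpl21 (0.58), Mrpl11 (0.03), Mrpl14 (0.09), Mrpl51 (0.24), Mrps14 (0.08), Mrps16 (0.35) and Mrps21 (0.11). It was larger in Mrpl12 (0.35), Mrps11 (0.33), Mrps18a (0.35), Mrps27 (0.66) and Mrps30 (0.43), and further below 0 in Mrpl20 (-0.73). None of these passed with the slide blocked.

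Arrays 1 and 2 of each group and the pair of arrays 3 give comparisons that share no array, although the split was made after the values were seen. The former compares slide 2 with slide 1, so rhTM and slide cannot be told apart in it. The latter is within slide 2 but rests on 1 array per group. Between arrays 1 and 2 of the groups, 67 members were higher with rhTM (50.3% of all genes) with a median of 0.36. Between rhTM 3 and saline 3, 60 were higher (49.7%) with a median of 0.21. Both differences were positive in 55 members (70.5%, against 32.7% of all genes) and negative in 6 (32.7% of all genes). Mrpl18 was higher by 1.73 and 0.57, Mrps36 by 1.40 and 0.70, and Mrps14 by 1.49 and 0.04. Mrps35 had its larger difference between the arrays 3, at 1.02 against 0.41.

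**Figure D3:**
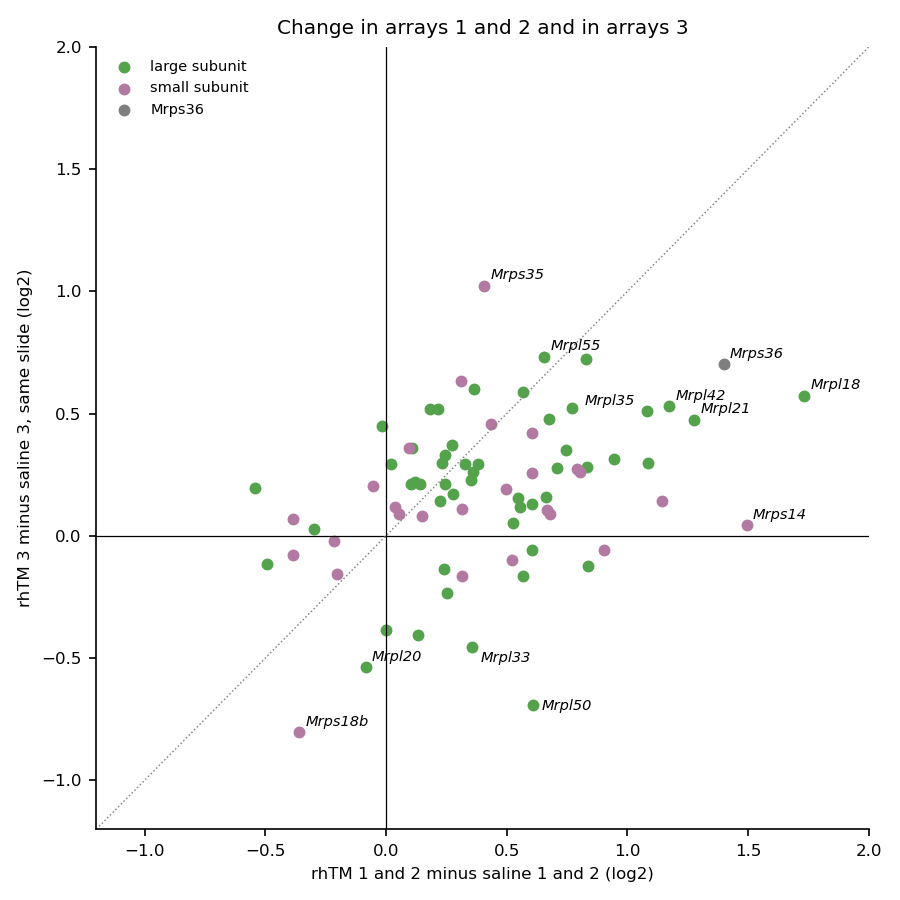
Each point is 1 of the 78 genes, with the mean of rhTM 1 and 2 minus the mean of saline 1 and 2 (x axis, log2) against rhTM 3 minus saline 3 (y axis, log2); the dotted line marks equal values. The x axis compares slide 2 with slide 1, so rhTM and slide cannot be told apart on it, and the y axis compares arrays of slide 2. Of the 78 points, 55 are in the upper right quadrant and 6 in the lower left, and 50 of the 78 lie below the dotted line; the medians were 0.36 on the x axis and 0.21 on the y axis.

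Other genes of mitochondrial translation were read beside the members from lists chosen with earlier results of these data known. Of the 5 ribosomal subunits with other names, 4 were higher, and 0 were called by limma (1 at an unadjusted p under 0.05). They include Ptcd3 (0.75 ± 0.26, groups apart), Chchd1 (0.52 ± 0.49, but -0.63 against saline 3) and Gadd45gip1 (-0.35 ± 0.24, but 0.09 against saline 3). Of 25 factors of ribosome assembly, 15 were higher and 0 called by limma (4 at an unadjusted p under 0.05), with a median of 0.16. Rpusd4, a pseudouridine synthase of the mitochondrial 16S RNA, had the largest change there, 0.97 ± 0.21 (limma, adjusted p = 0.0507), while Rcc1l, of the same module, had -0.82 ± 0.45 and 0.14 against saline 3. Of 17 translation factors, 14 were higher and 0 called by limma (2 at an unadjusted p under 0.05), with a median of 0.27 and the largest changes in Lrpprc (0.73 ± 0.24), which stabilises mitochondrial messenger RNAs, and in the deformylase Pdf (0.71 ± 0.23).

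The mitochondrial aminoacyl-tRNA synthetases had no common direction, since their sign turned with the saline arrays used. Of 20 enzymes and amidotransferase subunits, 8 were higher in the group means with a median of -0.09, but 15 were higher against saline 3 with a median of 0.31. Limma called 0 of them (2 lower and 0 higher at an unadjusted p under 0.05). Mars2 and Ears2, for methionine and glutamate, had rhTM arrays below all saline arrays at -1.39 ± 0.36 and -1.34 ± 0.29 (limma, adjusted p = 0.0719 and 0.0526), and Fars2 had 0.46 ± 0.22. Of 12 genes that copy and transcribe mitochondrial DNA, 9 were higher with a median of 0.50. Mgme1, a nuclease of mitochondrial DNA maintenance, rose by 1.32 ± 0.26 (limma, adjusted p = 0.0447; 0.102 blocked on the slide and 0.0716 on the number). Mterf2 had 1.16 ± 0.33 (limma, adjusted p = 0.0832; 0.0527 blocked on the slide and 0.0459 on the number, where it was called higher), Polg -0.58 ± 0.31 and Polrmt, the RNA polymerase, -0.31 ± 0.34. Polg and Polrmt were above saline 3, by 0.05 and 0.20.

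**Figure D4:**
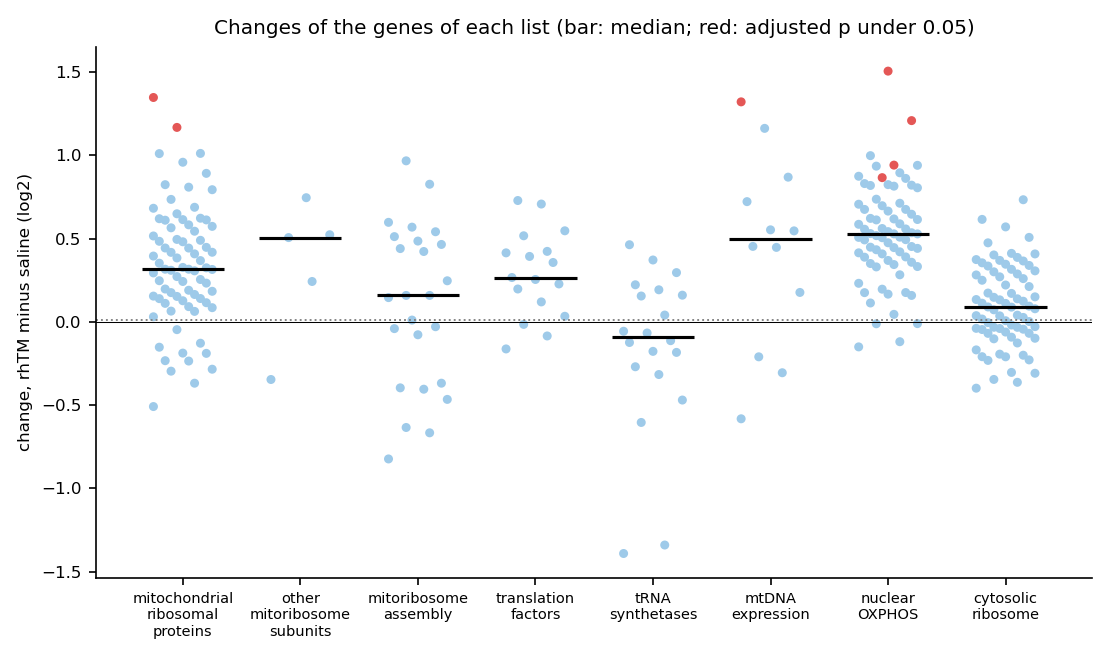
Change of every gene tested in the 78 members and 7 other lists (y axis, log2, rhTM mean minus saline mean; each point is a gene, bars are medians, and the dotted line is the median of all genes, 0.01). Red points passed the test. The medians are 0.32 for the members, 0.53 for nuclear subunits of oxidative phosphorylation, 0.09 for cytosolic ribosomal proteins (-0.67 against saline 3) and -0.09 for the synthetases (0.31 against saline 3).

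Nuclear subunits of oxidative phosphorylation, the complexes that the mitochondrial ribosome serves, also had higher means with rhTM. Of 74 tested, 70 were higher, the median was 0.53 (0.40 against saline 3, and 0.34 after quantile normalization, beside 0.33 for the members there), and 4 passed, Ndufa8 at 1.51 ± 0.29, Cycs at 1.21 ± 0.24, Sdhd at 0.94 ± 0.20 and Ndufb3 at 0.87 ± 0.18 (limma, adjusted p 0.0430 to 0.0495). All 4 missed the threshold in both blocked fits. Of all genes tested, 2.75% were called higher. At an unadjusted p under 0.05 (limma), 34 of the 74 were higher and 0 lower, against 15.1% and 15.6% of all genes. Of the 78 members, 20 were higher and 1 lower by that measure. Every rhTM array was above every saline array in 40 of the 74, against 34 of the 78 members and 17.0% of all genes. Cytosolic ribosomal proteins behaved otherwise. Of 76, 48 were higher in the group means with a median of 0.09 (-0.01 after quantile normalization), 0 were called by limma (0 at an unadjusted p under 0.05), and 0 were above saline 3, where the median was -0.67. The list averaged 7.06, 6.82 and 8.07 with saline and 7.24, 7.13 and 7.88 with rhTM. Saline 3 and rhTM 3 were thus the highest arrays for cytosolic ribosomal proteins, which the mitochondrial list did not show. No test was made of the difference between lists.

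Some members have a neighbour that starts close by and runs the other way, and these neighbours were read as well. Whether such a pair shares a promoter was not tested. In the RefSeq table, 23 of the 69 members with a window (33.3%) have another gene that starts within 500 bases and runs the other way, against 10.9% of all genes. Mrpl46 and Mrps11 face each other across 42 bases, and their changes were 0.15 and 0.06. Of 18 tested partners that are not members, 8 were higher with rhTM and 10 lower, with a median of -0.10, while 15 of the 18 members facing them were higher, with a median of 0.29. Against saline 3, 11 of these partners were higher and 7 lower with a median of 0.21, and 14 of the members were higher with a median of 0.40, so the partners' balance turned with the saline arrays used. Mrpl18 faces Tcp1, a subunit of the cytosolic chaperonin, across 238 bases, and Tcp1 had 3.96, 3.73 and 3.58 with saline and 3.14, 3.14 and 3.44 with rhTM. There all rhTM arrays were below all saline arrays (-0.52 ± 0.20, limma, adjusted p = 0.141), opposite to Mrpl18. Mrpl21 faces Ighmbp2 across 32 bases (-0.50 ± 0.26, but -0.01 against saline 3), and Mrpl47 (0.49 ± 0.23) faces Ndufb5, a complex I subunit, across 308 bases (0.67 ± 0.26). The signs of member and partner matched in 9 of the 18 pairs, and in 11 against saline 3.

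Markers of heart muscle and of neutrophils also differed between the groups. All 8 cardiomyocyte markers had a higher mean with rhTM (median 0.78), Pln passed the test (1.35 ± 0.28, limma, adjusted p = 0.0478), and the mean over the list was 7.24 to 8.14 in the saline and 8.16 to 8.76 in the rhTM arrays. Of 12 neutrophil markers, 10 were lower (median -3.20), 1 was called, Cd177, and their mean was 0.91 to 3.01 with saline and -1.84 to 1.80 with rhTM. Since RNA came from whole hearts, fewer cells of a type and less RNA per cell cannot be told apart, and the part of these markers in the members' values was not tested. Saline 3 had the lowest cardiomyocyte mean of the 6 arrays and the highest neutrophil mean. Of the saline arrays, saline 3 had the highest mean over the members, at 3.68 against 3.58 and 3.55. The median difference of a member from the mean of saline 1 and 2 was only 0.05, and 41 of the 78 lay above it. Of macrophage markers 6 of 7 were higher, with Cx3cr1 called (limma, adjusted p = 0.0244), of endothelial ones 2 of 6, and of fibroblast ones 2 of 5. Higher means were found in 2 of 5 markers of smooth muscle and pericytes, 1 of 4 of skeletal muscle, 4 of 4 of T and NK cells, 1 of 2 of B cells, 0 of 2 of red cells and 2 of 2 of adipocytes. Among these, limma called Myh4 of skeletal muscle higher (adjusted p = 0.0218) and, of smooth muscle and pericytes, Rgs5 higher (1.21 ± 0.24) and Acta2 and Pdgfrb lower (-1.55 ± 0.24 and -0.995 ± 0.19; adjusted p 0.0323 to 0.0444). Blocking on the slide ended the calls of Cx3cr1, Rgs5, Acta2 and Pdgfrb (limma, adjusted p 0.0549 to 0.0895), and blocking on the number those of Rgs5 and Pdgfrb (0.0609 and 0.0554) while it added Lum of fibroblasts, higher (0.0431), and Retnlg of neutrophils, lower (0.0466).

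**Figure D5:**
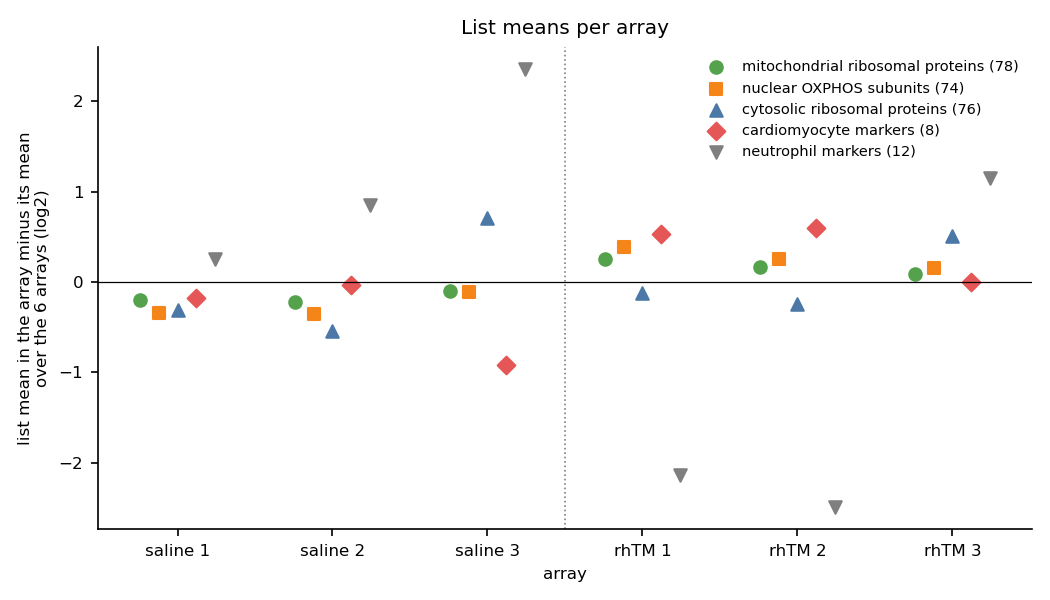
Mean signal of 5 gene lists in each array minus the mean of that list over the 6 arrays (y axis, log2). The 78 members lie below 0 in all saline and above 0 in all rhTM arrays, cytosolic ribosomal proteins are highest in saline 3 and rhTM 3, and neutrophil markers are lowest in rhTM 1 and 2.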

How the data were processed

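Cy3-labelled RNA of 6 hearts was hybridised to 1-colour Agilent arrays. The scanner files hold spot intensity values as the authors deposited them, and per the file headers the software was Feature Extraction 10.7.3.1, with an mm9 grid, although version 9.1 is the one in the submitters' processing notes. That signal is corrected for background and not normalised between arrays, per the file headers. A value table of log2 values was also deposited, with centring and scale not given in the sources used here. By comparison with the scanner files, it equalled the log2 signal minus the array's 75th percentile minus a baseline per probe that differed between slides, so it served only as an alternative.

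Here, log2 processed signals were centred on each array's 75th percentile over non-control spots. Spots of 1 probe were averaged without those with other flags for outliers, as the authors deposited them, which left out 368 of 56605 probes (59305 spots per array). Through RefSeq accessions, 32789 probes had a symbol and 23448 had none. A gene was read from its probe with the highest mean, and 14701 genes were tested, namely those detected above background in every array of either group. Groups came from the sample titles, which name 3 separate mice each. The test was limma 3.58.1 (R 4.3.3, lmFit and eBayes, group only), with Benjamini-Hochberg adjustment and calls under 0.05. Its code was first run on simulated data with independent noise of equal spread and no slide effect. That run checked the code, not how the fit behaves on arrays that differ as these do. The number of arrays limits the precision.

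Same-numbered arrays of the groups deviated from their group means with correlations of 0.319, 0.235 and 0.372 over genes, which are not independent. Unlike numbers gave -0.387 to 0.314. The pairing comes only from these correlations, since the labels name no shared litter or day, and the blocked values are printed where they change a call.

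Named members were those called, the 6 largest changes per direction, the 5 brightest and 5 dimmest probes, and members with a known role; any other member named was picked after its values were seen. In the other lists they were called genes and up to 2 with the largest change per direction. The members and all lists were chosen with earlier results of these data known. Lists were described by counts and medians, without a test. Alternatives covered scaling, background, filters, probe choice, blocks, weights, the deposited table, the symbol rule and each array left out. Normexp used the median spot signal, since no mean signal is in the files used here.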

Additional observations from a re-analysis of the deposited data

How the results depend on the processing

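Under every alternative run, 63 to 68 of the 78 members (65 of 75 without the lettered symbols) had a higher mean with rhTM and the median change was 0.31 to 0.40, the latter with the median of the genes tested as the centre, which moved the median of all genes from 0.01 to 0.10 (0.095) and the share of calls that were higher from 53.3% to 64.3%. The sign was positive under all alternatives in 52 members, negative in 4 and mixed in 22. The number of calls was not stable. Members called higher were 2 in the fit described, 0 with no filter on dim probes (more genes tested), 1 with the slide as a block, 0 with the replicate number as a block, 4 with a trend in eBayes, 42 with array weights and 21 from the deposited table. Called lower were 0, but 6 with array weights and 6 from the deposited table. Leaving out 1 array gave 0 to 25 called higher, the latter without saline 3 (19.8% of all genes higher and 18.8% lower), and 0 to 1 called lower. Without saline 3 the groups were on different slides, so rhTM and slide cannot be told apart in that fit. Of all genes, 31.7% were called higher and 31.2% lower with array weights, and 15.0% and 15.7% from the deposited values, whose baseline differs between slides, against 2.75% and 2.41%. The causes were not tested.

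Against saline 3, 8 members turned from higher to lower and 4 from lower to higher, and all 48 cytosolic ribosomal genes that were higher in the group means turned lower. Of the genes named by rule, signs that turned with the slide as a block and from the deposited table were those of Mrpl10 (0.31 and 0.19), Mrpl33 (-0.87 and -0.75), Mrpl50 (-0.89 and -0.87), Mrps18c (-0.30 and -0.26), Chchd1 (-0.63 and -0.27), Rpl7a (-0.35 and -0.40), Rps24 (-0.65 and -0.32), Rcc1l (0.14 and 0.08), Polg (0.05 and 0.12), Polrmt (0.20 and 0.14) and Gadd45gip1 (0.09 and 0.07). Mrps12 turned with the slide only (0.05), and with array weights Mrps27 (-0.02) and Mrps30 (0.00). Leaving out 1 array, the change ranged from -0.37 to 0.01 in Mrpl20, -0.18 to 0.56 in Mrpl33, -0.13 to 0.71 in Mrpl50, -0.07 to 0.18 in Mrps11, -0.01 to 0.22 in Mrps18a, -0.28 to 0.26 in Mrps27 and -0.01 to 0.24 in Mrps30. The replicate block ended the calls of Mrpl18 and Mrps36 (adjusted p = 0.0711 and 0.0588, limma) and, of the other genes named as called, those of Mgme1, Ndufa8, Cycs, Sdhd, Ndufb3, Rgs5 and Pdgfrb, and it added Mterf2. With 3 arrays per group on unevenly filled slides, differences of the size of the median change could not be told from 0 gene by gene, and the slide-blocked values rest on 1 saline array. All members were well above background on all arrays.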
